A study of Danio rerio with 10 samples.

Results

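The data described here are read counts from livers of nAtf6 transgenic zebrafish larvae (nAtf6 TG) and of their non-transgenic siblings at 5 days post fertilization (dpf), compared over all genes of the deposited 5 dpf table. They comprise 6 of the 10 libraries of the series, 3 from nAtf6 TG livers and 3 from sibling livers. The 4 libraries of the younger age were not analysed here. Each library was made from a pool of 25 livers. The table lists 32105 Ensembl gene identifiers, of which 18470 had counts high enough to be tested. According to the protocol of these libraries, 1 parent carried the transgene Tg(fabp10:nAtf6-cherry; cmlc2:GFP)C, the other was WT TAB 14, and larvae were sorted by the GFP that the cmlc2 promoter drives in the heart. Transgenic larvae therefore carried the transgene of allele C on a background shared with their siblings. The siblings, whose genotype is labelled WT, carried no nAtf6 transgene. The series description differs, since it gives Tg(fabp10a:CAAX-EGFP), whose liver is marked by GFP, as the other parent, so whether both groups of 5 dpf also carried that reporter cannot be told from the labels. Larvae came from 3 clutches dissected on different days. The model has 3 limits. The fabp10 promoter drives the transgene in hepatocytes, while the whole liver was dissected. A single transgenic allele was used. The siblings carry no control transgene with a fluorescent protein under the same promoter, so the effect of nAtf6 and that of carrying such a transgene cannot be told apart.

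Atf6 is a membrane protein of the endoplasmic reticulum (ER), the compartment in which secreted proteins fold. When unfolded proteins accumulate, Atf6 moves to the Golgi and is cleaved there, and its cytosolic part enters the nucleus as a transcription factor of the unfolded protein response. The transgene encodes this nuclear form (nAtf6) and so bypasses the cleavage. Hepatocytes secrete most proteins of the blood plasma, make lipoproteins and bile acids, store glycogen and metabolize foreign compounds, and it is these functions, rather than the ER stress genes alone, that are described below.

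The libraries held 17622825 to 22963880 counts on genes in nAtf6 TG livers and 20081133 to 22293405 in sibling livers. Levels are given as CPM, the count of a gene per 1000000 counts on genes in the same library, always in the order of libraries 1, 2 and 3, and a count of 0 allows up to 0.131 to 0.170 CPM. Fold changes are log2 of nAtf6 TG over sibling, on counts scaled by TMM. This scaling multiplied the values of sibling libraries 1, 2 and 3 by 0.900, 1.32 and 0.905. For nAtf6 TG libraries 1, 2 and 3 the factors were 0.983, 0.966 and 0.982. CPM values and their sums do not include it, so groups or libraries apart in CPM can overlap once scaled. A gene was called at an adjusted p under 0.05 (edgeR's quasi-likelihood test, Benjamini-Hochberg adjustment over all genes tested). Of the genes tested, 3913 were called (21.2%), 2531 of them higher (13.7%) and 1382 lower (7.48%) in nAtf6 TG livers. The median log2 fold change of all genes tested was −0.04, which is the background for each group of genes below. The balance of directions depends on the scaling: 64.7% of the calls were higher with TMM, 42.8% with upper quartile scaling, which moved the median of all genes by −0.23, and 73.6% with total counts. In each group 1 library stood apart. nAtf6 TG libraries 2 and 3 were much more alike (chi-square per gene 2.90) than either was to library 1 (54.5 and 59.8), and sibling libraries 1 and 3 (13.1) than either was to library 2 (83.3 and 88.4). The labels do not say how these libraries differ in their making. Leaving out nAtf6 TG library 1 gave 5778 calls (28.6% of the genes tested), leaving out sibling library 2 gave 7598 (37.9%), and leaving out both gave 13690 (68.7%). Leaving out nAtf6 TG library 2 or 3 gave 1361 or 1405 calls, and leaving out sibling library 1 or 3 gave 1709 or 1692. A change is said to hold when it was called with the same sign in 4 fits, namely with all 6 libraries, with nAtf6 TG library 1 left out, with sibling library 2 left out and with both left out, which 3597 genes did (19.5% of those tested), 2451 higher (13.3%) and 1146 lower (6.2%). A stricter set of 1294 genes (7.01%), 1081 higher (5.85%) and 213 lower (1.15%), was called whichever of the 6 libraries was left out, and all of them also held. The plot of calls by fit shows these counts.

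**Figure D1:**
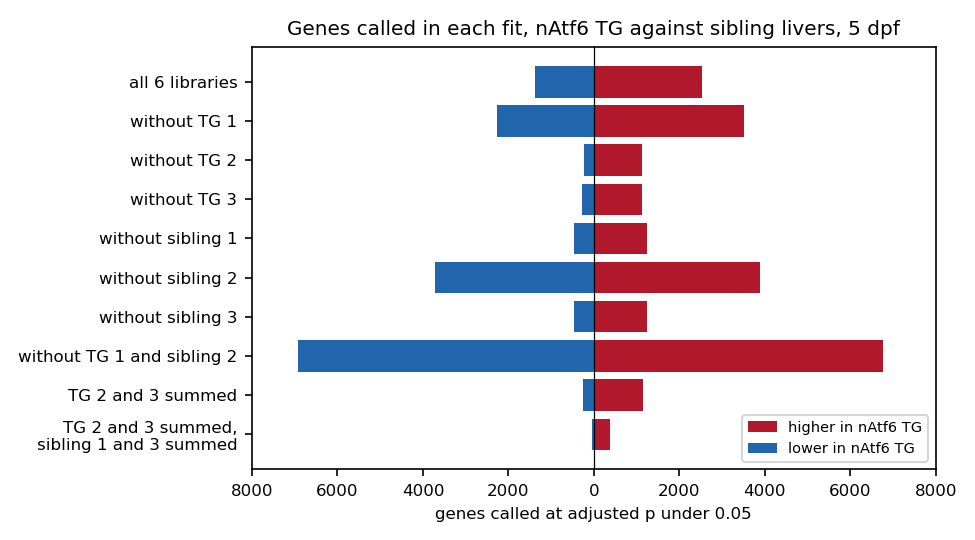
Genes called at an adjusted p under 0.05 in each fit (horizontal axis, number of genes), to the right those higher and to the left those lower in nAtf6 TG livers, with all 6 libraries and with libraries left out or summed. Calls range between 429, where the libraries most alike were summed in each group, and 13690, where only those libraries were kept.

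atf6 itself checks the labels. The identifier ENSDARG00000012656 had 447, 559 and 552 CPM in nAtf6 TG livers, against 100.5, 73.4 and 86.1 CPM in sibling livers (log2 fold change 2.52 ± 0.196 (SE), adjusted p = 0.000322). All 3 transgenic libraries lay above all 3 sibling libraries, and reads of the transgene and of the endogenous gene can both fall on this identifier. The tissue label was checked with 7 defining hepatocyte genes, fabp10a, tfa, apoa2, cp, ttr, fga and serpina1, which encode a liver fatty acid binding protein, transferrin, an apolipoprotein, ceruloplasmin, transthyretin, a fibrinogen chain and a protease inhibitor. All 7 were counted in every library, none below 387 CPM. The summed level of the 21 hepatocyte markers was 121484, 101764 and 105182 CPM in nAtf6 TG livers, against 163416, 190948 and 175821 CPM in sibling livers, so the groups did not overlap and the transgenic livers were lower. In bulk samples, fewer cells of a type and less RNA of its genes per cell cannot be told apart.

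The genes that took most counts were largely the same in both groups, and those that entered the top ranks of nAtf6 TG livers alone were ER chaperones. Of the 10 most counted identifiers of each group, 6 were shared. Together the 10 most counted identifiers of a library took 36.6%, 31.6% and 31.9% of its counts in nAtf6 TG livers, against 37.2%, 43.1% and 36.8% in sibling livers. The means were 33.4% ± 2.82 in nAtf6 TG livers and 39.0% ± 3.53 in sibling livers (SD, n = 3 each), a difference of −5.65 percentage points with a 2-sided exact permutation p of 0.1, the smallest that 3 against 3 can give. The groups did not overlap, but nAtf6 TG library 1 lay just below sibling libraries 1 and 3. Counts depend on the length of a gene as well as its level, so these shares rank genes by reads, not by molecules.

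The first rank in both groups was ENSDARG00000080337, which the naming tables do not name. It took 16.9%, 14.2% and 13.8% of the counts in nAtf6 TG livers and 14.97%, 16.7% and 12.4% in sibling livers, overlapping ranges (log2 fold change −0.09 ± 0.37 (SE), adjusted p = 0.878). rn7sl1, the RNA of the signal recognition particle that guides nascent secreted proteins to the ER, came second in both. Its shares were 7.204%, 6.07% and 6.42% in nAtf6 TG livers and 6.89%, 8.16% and 8.05% in sibling livers, again overlapping. Plasma protein genes followed in both groups. apoa1b, a main apolipoprotein of high density lipoprotein, took 3.88%, 3.20% and 3.49% in nAtf6 TG livers, against 4.80%, 5.91% and 5.098% in sibling livers (log2 fold change −0.695 ± 0.33 (SE), adjusted p = 0.175). apoa2, another apolipoprotein, took 1.96%, 1.90% and 2.04%, against 2.64%, 3.58% and 3.17% (log2 fold change −0.79 ± 0.33 (SE), adjusted p = 0.127). tfa, transferrin, the iron carrier of plasma, took 1.96%, 1.56% and 1.55%, against 2.47%, 3.66% and 2.82% (log2 fold change −0.96 ± 0.37 (SE), adjusted p = 0.103). For none of the 3 did the groups overlap, but none was called. apobb.1, an apolipoprotein B on which very low density lipoprotein is built, was also without overlap and not called (log2 fold change −0.97 ± 0.33 (SE), adjusted p = 0.0743). The widest exact 95% binomial interval of any of these shares was 0.0171 percentage points to either side, which covers counting error only.

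The 4 identifiers in the top 10 of nAtf6 TG livers and not of sibling livers were all ER chaperones. hsp90b1, the Hsp90 of the ER, ranked 6 in nAtf6 TG livers and 199 in sibling livers. It took 1.14%, 1.37% and 1.33% of the counts in nAtf6 TG livers, against 0.0605%, 0.0323% and 0.0608% in sibling livers (log2 fold change 4.62 ± 0.27 (SE), adjusted p = 0.000105). hyou1, a large Hsp70 of the ER, ranked 8 and 464, the disulfide isomerase pdia4 ranked 9 and 648, and hspa5, the main Hsp70 of the ER, ranked 10 and 330. Their log2 fold changes were 5.07, 5.62 and 4.4002 (adjusted p = 0.000104, 6.07e-05 and 0.000522). All 4 calls were kept whichever library was left out. In their place sibling livers had fabp10a (rank 7, against 13 in nAtf6 TG livers), the retinol carrier rbp4 (rank 8, against 38), the mitochondrially encoded cytochrome oxidase subunit mt-co1 (rank 9, against 11) and the plasma protein fetub (rank 10, against 14). Of these only rbp4 was called. It had 3648, 1421 and 1341 CPM in nAtf6 TG livers, against 8005, 4126 and 9263 CPM in sibling livers (log2 fold change −1.74 ± 0.44 (SE), adjusted p = 0.032). Its groups did not overlap, but nAtf6 TG library 1 lay close to sibling library 2, and the call was lost without nAtf6 TG library 2 or 3 or sibling library 1 or 3 (adjusted p up to 0.139).

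**Figure D2:**
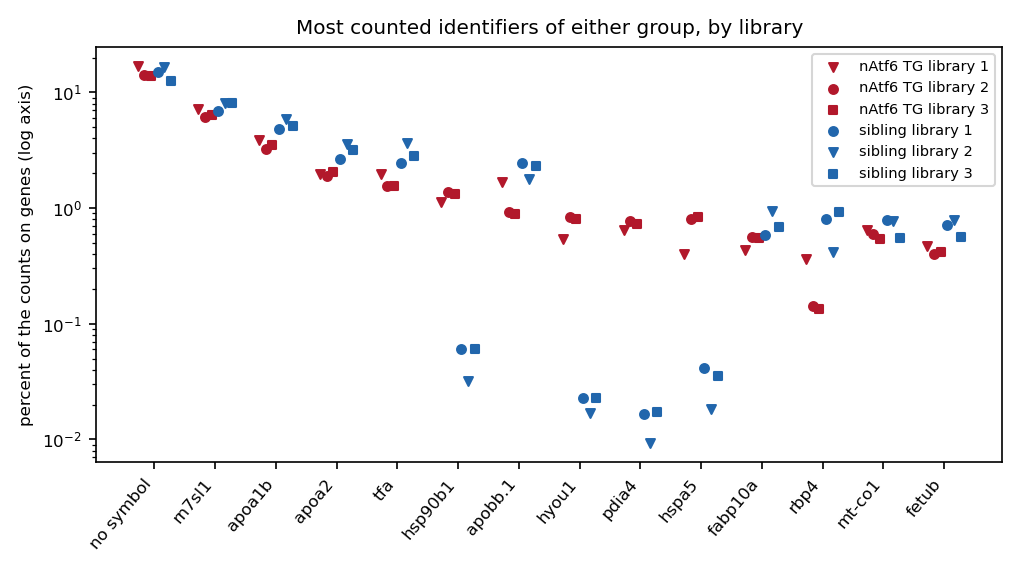
Percent of the counts on genes (vertical log axis) taken by each of the 14 identifiers among the 10 most counted of either group, 1 point per library, red for nAtf6 TG and blue for sibling livers. hsp90b1, hyou1, pdia4 and hspa5 are set far apart between the groups, while the plasma protein genes differ far less and rn7sl1, mt-co1 and the unnamed identifier overlap.

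Beyond the chaperones, genes of the rest of the secretory route were called in 1 direction, higher in nAtf6 TG livers. Of 51 tested genes for translocation into the ER and N-glycosylation, 17 were called higher and 0 lower (33.3% called; median log2 fold change 0.41), and of 87 genes for COPII and COPI vesicles and their cargo receptors, 45 were called higher and 0 lower (51.7%; median 0.698). stt3b, a catalytic subunit of the oligosaccharyl transferase that attaches N-glycans, had 469.7, 939 and 954 CPM in nAtf6 TG livers, against 91.1, 85.5 and 89.01 CPM in sibling livers (log2 fold change 3.07 ± 0.33 (SE), adjusted p = 0.00125). srp9, a protein of the signal recognition particle, had 44.9, 88.98 and 90.2 CPM in nAtf6 TG livers, against 12.5, 14.3 and 13.7 CPM in sibling livers (log2 fold change 2.36 ± 0.33 (SE), adjusted p = 0.00354). The signal peptidase subunit spcs3 had 73.4, 112 and 106 CPM in nAtf6 TG livers, against 21.96, 15.97 and 22.9 CPM in sibling livers (log2 fold change 2.21 ± 0.204 (SE), adjusted p = 0.00064). For each of the 3 genes the groups were apart by a wide margin, with nAtf6 TG library 1 the lowest of its group. Among transport genes, lman2la, related to a lectin that carries glycoproteins between ER and Golgi, had 24.4, 56.1 and 60.8 CPM in nAtf6 TG livers, against 1.99, 1.44 and 2.56 CPM in sibling livers (log2 fold change 4.51 ± 0.39 (SE), adjusted p = 0.000504). The cargo receptor component ergic3 had 59.13, 111 and 110.2 CPM in nAtf6 TG livers, against 8.32, 7.76 and 8.59 CPM in sibling livers (log2 fold change 3.43 ± 0.2996 (SE), adjusted p = 0.000535), and tmed1, of the p24 family of cargo adaptors, had 75.4, 96.9 and 114 CPM in nAtf6 TG livers, against 7.72, 8.79 and 10.4 CPM in sibling livers (log2 fold change 3.32 ± 0.26 (SE), adjusted p = 0.000352). These again showed no overlap. The calls of 14 genes of the first list and 24 of the second were kept whichever library was left out, as were those of all 6 genes named. Over those fits the calls higher numbered 14 to 30 and 24 to 58, fewest without nAtf6 TG library 2 or 3 or sibling library 1 or 3 in turn, and 17 and 44 held.

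The plot of members of 22 lists shows how the groups of genes compare. For reference, the 3 lists of ER stress genes had medians of 2.64 (chaperones and disulfide isomerases), 0.63 (ER-associated degradation) and 0.34 (sensors and transcription factors of the unfolded protein response). Of the 45 other lists that are not cell type markers, those with the largest positive medians were the tRNA synthetases, proteasome subunits, integrated stress response and vesicle transport genes. The largest negative medians were those of cytochromes P450, plasma carriers and apolipoproteins.

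**Figure D3:**
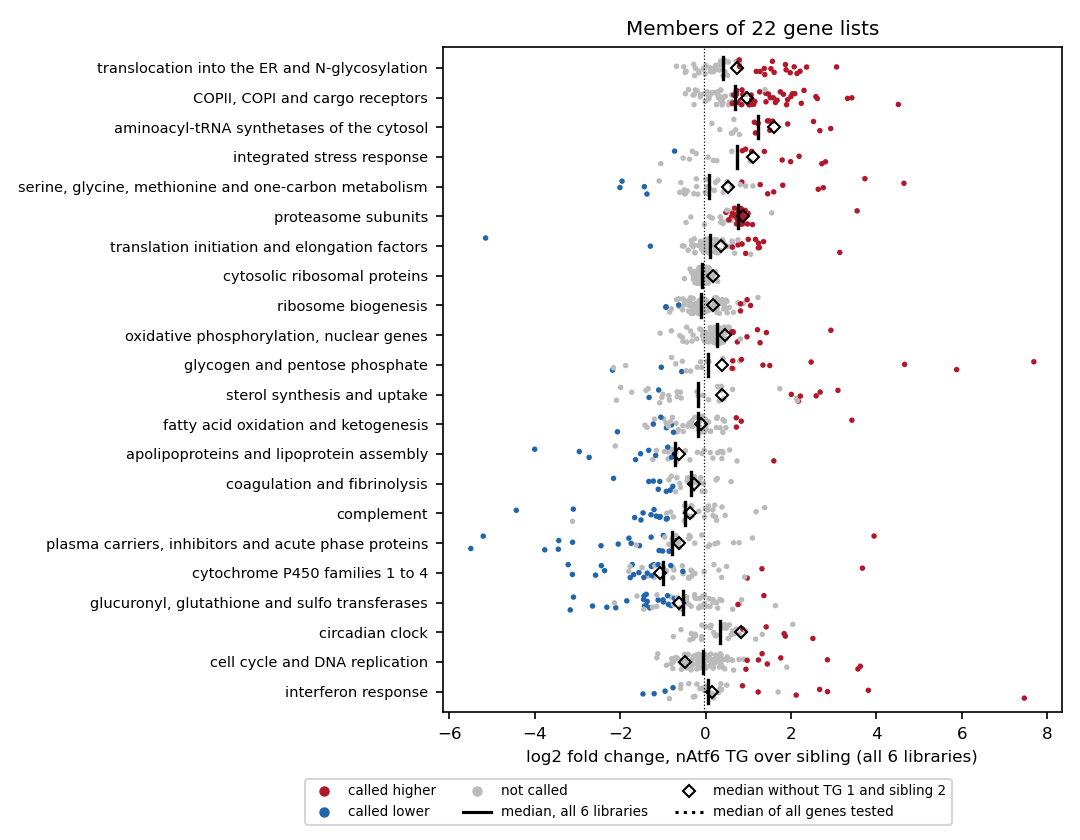
Log2 fold change of nAtf6 TG over sibling livers (horizontal axis) for each tested member of 22 gene lists, red and blue for members called higher and lower, black bars for the median of the list and open diamonds for its median without nAtf6 TG library 1 and sibling library 2. Members of the secretory and tRNA synthetase lists reach to the right of the dotted median of all genes, those of the plasma protein and P450 lists to the left, and ribosomal proteins stay close to it.

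Most genes that charge tRNAs were called higher. Of the 19 tested aminoacyl-tRNA synthetases of the cytosol, 12 were called higher and 0 lower (63.2% called; median log2 fold change 1.22, and 1.61 without both libraries apart). Their summed level was 1417, 2713 and 2699 CPM in nAtf6 TG livers, against 831, 788 and 856 CPM in sibling livers. The transgenic livers were higher in every library, and library 1 lay between the siblings and the other transgenic libraries. nars1, which charges the tRNA of asparagine, had 133, 304 and 311 CPM in nAtf6 TG livers, against 32.6, 28.6 and 31.95 CPM in sibling livers (log2 fold change 2.93 ± 0.35 (SE), adjusted p = 0.00188). tars1, the enzyme for threonine, had 219.7, 431 and 421 CPM in nAtf6 TG livers, against 51.4, 51.5 and 54.9 CPM in sibling livers (log2 fold change 2.68 ± 0.32 (SE), adjusted p = 0.00174), and yars1, the enzyme for tyrosine, had 81.7, 176 and 176 CPM in nAtf6 TG livers, against 24.3, 21.4 and 25.9 CPM in sibling livers (log2 fold change 2.53 ± 0.32 (SE), adjusted p = 0.0024). These calls were kept whichever library was left out, as were those of 5 synthetases in all. The calls numbered 5 to 17 over the leave-one-out fits.

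The integrated stress response is the program by which phosphorylation of eIF2 alpha limits translation while transcription factors of the ATF4 class rise, and tRNA synthetases and serine synthesis genes are among its known targets in mammals. Of its 20 listed genes tested, 9 were called higher and 1 lower (50% called, median 0.74). The summed level of the list was 798, 1218 and 1237 CPM in nAtf6 TG livers, against 767, 786 and 781 CPM in sibling livers. nAtf6 TG library 1 was thus near the siblings, and with TMM scaling sibling library 2 passes it. The calls of 5 of the members called higher were kept in every leave-one-out fit. Those named here were picked for the size of their change. atf3, a stress-induced transcription factor, had 18.2, 63.04 and 62.4 CPM in nAtf6 TG livers, against 6.37, 6.15 and 6.88 CPM in sibling livers (log2 fold change 2.81 ± 0.47 (SE), adjusted p = 0.00697). ddit3, which encodes Chop, a factor linked to cell death under ER stress, had 21.95, 39.2 and 39.02 CPM in nAtf6 TG livers, against 9.26, 5.61 and 9.78 CPM in sibling livers (log2 fold change 1.99 ± 0.25 (SE), adjusted p = 0.00217). nupr1a, a small chromatin protein induced by stress, had 17.4, 40.005 and 45.9 CPM in nAtf6 TG livers, against 8.91, 4.75 and 8.59 CPM in sibling livers (log2 fold change 2.19 ± 0.35 (SE), adjusted p = 0.00632). In all 3 the transgenic livers were apart from the siblings and library 1 was the lowest of them. The member called lower was ppp1r15a, a regulatory subunit of the phosphatase that reverses the phosphorylation of eIF2 alpha (−0.73, adjusted p = 0.0207). Its call was lost without nAtf6 TG library 2 or 3 or sibling library 1 or 3 (adjusted p up to 0.127), whereas those of the other 3 were kept in every leave-one-out fit.

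Within amino acid metabolism, genes were called in both directions, and those named here were picked for the size of their change. psat1, the aminotransferase of serine synthesis, had 15.6, 77.9 and 74.8 CPM in nAtf6 TG livers, against 2.99, 0.942 and 2.801 CPM in sibling livers (log2 fold change 4.65 ± 0.66 (SE), adjusted p = 0.00373). psph, the phosphatase that completes serine synthesis, had 44.7, 65.1 and 75.3 CPM in nAtf6 TG livers, against 5.73, 3.14 and 4.75 CPM in sibling livers (log2 fold change 3.73 ± 0.25 (SE), adjusted p = 0.000179). aldh1l2, a folate enzyme of mitochondria, had 53.4, 113 and 112 CPM in nAtf6 TG livers, against 13.9, 11.8 and 13.4 CPM in sibling livers (log2 fold change 2.76 ± 0.32 (SE), adjusted p = 0.00156). All rose without overlap of the groups. In contrast mthfd1 (ENSDARG00000040492; the symbol has a second identifier), a folate enzyme of the cytosol, fell, with 109, 56.01 and 59.14 CPM in nAtf6 TG livers, against 277, 259 and 287 CPM in sibling livers (log2 fold change −1.96 ± 0.31 (SE), adjusted p = 0.00577). Over the whole list for serine, glycine, methionine and one-carbon metabolism, 9 of 38 genes were called higher and 4 lower (34.2% called), and the sign of its median (0.08) turned with upper quartile scaling (−0.15). Amino acid breakdown and the urea cycle moved in both directions, with 9 of 62 called higher and 11 lower (32.3% called). pah, the hydroxylase that begins the breakdown of phenylalanine, had 60.6, 28.1 and 31.1 CPM in nAtf6 TG livers, against 661, 499 and 638 CPM in sibling livers (log2 fold change −3.96 ± 0.35 (SE), adjusted p = 0.000554). The proline dehydrogenase prodha had 60.8, 146 and 138 CPM in nAtf6 TG livers, against 9.21, 9.55 and 8.69 CPM in sibling livers (log2 fold change 3.55 ± 0.39 (SE), adjusted p = 0.00129), and the urea cycle enzyme asl had 8.29, 14.5 and 13.98 CPM in nAtf6 TG livers, against 3.44, 1.44 and 3.94 CPM in sibling livers (log2 fold change 2.06 ± 0.31 (SE), adjusted p = 0.00455). Thus pah fell while prodha and asl rose, without overlap of the groups in any of the 3. Of 52 amino acid transporters, 5 were called higher and 5 lower (19.2% called, near the 21.2% of all genes). The glutamate transporter slc1a3 (ENSDARG00000104431; 2.65, adjusted p = 0.000109) and the cationic amino acid transporter slc7a3 (ENSDARG00000020645; 1.69, adjusted p = 0.00191) rose, and the glycine transporter slc6a9 fell (−2.51, adjusted p = 0.00293). The calls of all genes named in this paragraph were kept in every leave-one-out fit.

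Most proteasome subunits were called higher, by small amounts, and no ribosomal protein was called. Of 48 proteasome genes, 31 were called higher and 0 lower (64.6% called; median 0.75), with a summed level of 1808, 2089.6 and 2135 CPM in nAtf6 TG livers, against 1368, 926 and 1445 CPM in sibling livers. Sibling library 2 was the lowest of all in CPM, but TMM scaling, which raises it by a factor of 1.32, brings it close to sibling library 1. psmb1, a subunit of the catalytic core, had 42.1, 50.2 and 50.3 CPM in nAtf6 TG livers, against 24.6, 17.7 and 27.01 CPM in sibling livers (log2 fold change 0.99 ± 0.15 (SE), adjusted p = 0.00476). psme4 (ENSDARG00000087911; the symbol has a second identifier), an activator that caps the core, stood apart from the other members with 15.7, 58.2 and 55.3 CPM in nAtf6 TG livers, against 5.28, 1.93 and 3.75 CPM in sibling livers (log2 fold change 3.55 ± 0.52 (SE), adjusted p = 0.00433). Both calls were kept in every leave-one-out fit, but these fits called only 5 to 35 proteasome genes higher, and the calls of 4 were kept in all. psma5, another core subunit (1.097, adjusted p = 0.00909), lost its call without nAtf6 TG library 2 or 3 (adjusted p up to 0.0543). None of the 84 ribosomal protein genes was called in either direction by edgeR, and 0 had an unadjusted p under 0.05 (median −0.07), and their summed level was 38447, 39318 and 40391 CPM in nAtf6 TG livers, against 38694, 40262 and 41195 CPM in sibling livers, with overlap. DESeq2 called 0 as well. Without both libraries apart 40 were called higher and 1 lower, in a fit that called 68.7% of all genes. Of 100 ribosome biogenesis genes 4 were called higher and 3 lower (7%). Without sibling library 2 these numbers were 15 and 3, where 19.4% and 18.5% of all genes were called in these directions. Among 68 translation factors, 11 were called higher and 2 lower (19.1%). The largest was eif5, which helps select the start codon, with 630.2, 1062 and 1000.4 CPM in nAtf6 TG livers, against 95.7, 89.9 and 103 CPM in sibling livers (log2 fold change 3.14 ± 0.28 (SE), adjusted p = 0.000541), called in every leave-one-out fit. Autophagy and lysosome genes were called in both directions (9 of 65 higher, 8 lower, 26.2% called against 21.2% of all genes). wipi1, a phosphoinositide binding protein of autophagosome formation, rose (1.04, adjusted p = 0.00575). The lysosomal lipid hydrolase lipa fell (−1.63, adjusted p = 0.0124), a call lost without nAtf6 TG library 2 or 3 (adjusted p up to 0.0736). Of 41 cytosolic heat shock proteins 2 were called higher and 4 lower (14.6% called). Without sibling library 2 these numbers were 9 and 9, against 19.4% and 18.5% of all genes.

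Genes of plasma proteins that the liver secretes were called lower far more often than higher, although most did not pass the test. Of 40 plasma carriers, protease inhibitors and acute phase proteins, 17 were called lower and 1 higher (45% called; median log2 fold change −0.79). Of 39 complement genes 13 were lower and 0 higher (33.3%; median −0.48), and of 33 coagulation genes 8 were lower and 0 higher (24.2%; median −0.34). hpxa, hemopexin, which binds free heme, had 2.28, 0.454 and 0.7403 CPM in nAtf6 TG livers, against 34.8, 63.6 and 42.7 CPM in sibling livers (log2 fold change −5.501 ± 0.66 (SE), adjusted p = 0.00189). apcs, a pentraxin of the acute phase, had 15.3, 5.96 and 7.01 CPM in nAtf6 TG livers, against 463, 92.99 and 537 CPM in sibling livers (log2 fold change −5.21 ± 0.66 (SE), adjusted p = 0.00227). No sibling library came near the transgenic ones in either gene, although sibling library 2 was well below the other siblings for apcs. The exception among the carriers was hamp, hepcidin, the hormone that limits iron export from cells. It had 16.8, 60.4 and 59.18 CPM in nAtf6 TG livers, against 3.69, 0.942 and 4.37 CPM in sibling livers (log2 fold change 3.94 ± 0.601 (SE), adjusted p = 0.00494), so it rose, with nAtf6 TG library 1 the lowest of the transgenic libraries. Related genes of iron handling moved too. The transferrin receptor tfr1a had 9.65, 8.23 and 8.32 CPM in nAtf6 TG livers, against 41.5, 18.9 and 40.6 CPM in sibling livers (log2 fold change −1.95 ± 0.203 (SE), adjusted p = 0.00103), and mtbl, listed among the metal binding genes, had 6.83, 13.1 and 12.6 CPM in nAtf6 TG livers, against 0.448, 0.224 and 0.1899 CPM in sibling livers (log2 fold change 5.17 ± 0.4005 (SE), adjusted p = 0.000316). The first fell and the second rose without overlap.

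In the complement list, the factor H-like genes cfhl5 and cfhl3 fell most among those above 5 CPM. cfhl5 had 0.867, 1.13 and 1.18 CPM in nAtf6 TG livers, against 29.4, 7.72 and 34.3 CPM in sibling livers (log2 fold change −4.44 ± 0.46 (SE), adjusted p = 0.000993), and cfhl3 had 2.71, 1.48 and 1.48 CPM in nAtf6 TG livers, against 19.6, 8.25 and 20.8 CPM in sibling livers (log2 fold change −3.1001 ± 0.33 (SE), adjusted p = 0.00115). serping1, the inhibitor of the first complement component, had 17.3, 25.9 and 26.8 CPM in nAtf6 TG livers, against 74.05, 63.2 and 73.5 CPM in sibling livers (log2 fold change −1.66 ± 0.22 (SE), adjusted p = 0.00268). cfhl5 was well below the other siblings in sibling library 2, yet above all transgenic libraries there. The coagulation protease habp2 fell (−1.33, adjusted p = 0.0191), a call lost without nAtf6 TG library 2 or 3 or sibling library 3 (adjusted p up to 0.113). The haptoglobin gene hp, whose product binds free hemoglobin, had 1.84, 2.27 and 2.09 CPM in nAtf6 TG livers, against 42.7, 1.12 and 47.1 CPM in sibling livers (log2 fold change −3.77 ± 1.01 (SE), adjusted p = 0.0373). Its low level in transgenic livers was shared by sibling library 2, and its call was lost without nAtf6 TG library 1, 2 or 3 or sibling library 1 or 3 (adjusted p up to 0.134). Of the called plasma carriers, 13 of 17 lower ones held and 6 were called in every leave-one-out fit. For complement these counts were 11 and 5 of 13, and for coagulation 6 and 1 of 8. The genes kept in every leave-one-out fit include hpxa, apcs, hamp, tfr1a, mtbl, cfhl5, cfhl3 and serping1.

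Apolipoproteins and proteins of lipoprotein assembly showed the same direction of calls. Of 34 genes, 10 were called lower and 1 higher (32.4% called, median −0.71). The summed level was 85106, 69103 and 72593 CPM in nAtf6 TG livers, against 116441, 132563 and 124747 CPM in sibling livers, without overlap. Most of this sum lay in apoa1b, apoa2 and apobb.1, none of which was called with TMM scaling of all 6 libraries. Other settings differed. Total counts called all 3 lower, upper quartile scaling called apoa2 and apobb.1, and DESeq2 called apobb.1 alone. cetp, which transfers cholesteryl esters between lipoproteins, had 13.6, 10.4 and 11.9 CPM in nAtf6 TG livers, against 162, 187 and 188 CPM in sibling livers (log2 fold change −4.005 ± 0.27 (SE), adjusted p = 0.000189). apoc1, an apolipoprotein exchanged between lipoproteins, had 711, 664 and 601 CPM in nAtf6 TG livers, against 4013, 5725 and 4261 CPM in sibling livers (log2 fold change −2.96 ± 0.35 (SE), adjusted p = 0.00173). Both fell in all 3 transgenic pools without overlap of the groups, with sibling library 2 the highest sibling for apoc1. The member called higher was apoa1a, the paralog of apoa1b, with 833, 625 and 642 CPM in nAtf6 TG livers, against 296, 105 and 302 CPM in sibling livers (log2 fold change 1.597 ± 0.302 (SE), adjusted p = 0.0114). Its direction was thus opposite to that of the far more counted apoa1b. These 3 calls were kept in every leave-one-out fit, which holds for 3 of the members called lower, and these fits called 3 to 13 lower.

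Among enzymes that metabolize foreign compounds, cytochromes P450 and conjugating enzymes were called lower more often than higher, and alcohol and aldehyde dehydrogenases were not. Of 47 cytochromes P450 of families 1 to 4, 18 were called lower and 3 higher (44.7% called; median log2 fold change −0.99). The summed level was 3646, 2300.4 and 2259.6 CPM in nAtf6 TG livers, against 6184, 6413 and 6542 CPM in sibling livers, with all transgenic livers lower. cyp2aa2 had 5.04, 2.04 and 1.96 CPM in nAtf6 TG livers, against 15.7, 19.9 and 13.8 CPM in sibling livers (log2 fold change −2.58 ± 0.46 (SE), adjusted p = 0.00878), and its call was kept in every leave-one-out fit. cyp2n13 had 64.4, 34.9 and 35.1 CPM in nAtf6 TG livers, against 248, 579.99 and 263 CPM in sibling livers (log2 fold change −3.22 ± 0.56 (SE), adjusted p = 0.00856), and cyp2ad2 had 122, 47.6 and 46.2 CPM in nAtf6 TG livers, against 327, 915 and 372 CPM in sibling livers (log2 fold change −3.12 ± 0.68 (SE), adjusted p = 0.0192). Sibling library 2 was the highest for both, and nAtf6 TG library 1 the highest of its group. The call of cyp2n13 was lost without nAtf6 TG library 2 (adjusted p = 0.0511) and that of cyp2ad2 without nAtf6 TG library 2 or 3 (up to 0.0912). Against this trend cyp3c4 rose to 76.5, 102 and 103 CPM in nAtf6 TG livers, against 9.61, 3.99 and 8.36 CPM in sibling livers (log2 fold change 3.67 ± 0.25 (SE), adjusted p = 0.000193), a call kept in every leave-one-out fit. In the list 17 of 18 members called lower held, 4 were kept in every leave-one-out fit, and these fits called 4 to 25 lower.

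Conjugating enzymes showed the same balance, with 20 of 63 transferases of glucuronic acid, glutathione and sulfate called lower and 2 higher (34.9%; median −0.53). Of the lower ones 14 held, but 0 were kept in every leave-one-out fit. gstp1.2, a glutathione transferase, was an exception that rose, with 859, 644 and 654 CPM in nAtf6 TG livers, against 282, 229 and 292 CPM in sibling livers (log2 fold change 1.36 ± 0.205 (SE), adjusted p = 0.00467). Of 24 alcohol and aldehyde dehydrogenases, 5 were called higher and 3 lower (33.3% called, median −0.06). Their summed level was 5205, 5554 and 5484 CPM in nAtf6 TG livers, against 4088, 4455 and 4379.9 CPM in sibling livers. The groups did not overlap in CPM, but TMM scaling, which raises sibling library 2 by a factor of 1.32, ends this separation. adh8a, an alcohol dehydrogenase, fell, with 2.17, 1.19 and 1.002 CPM in nAtf6 TG livers, against 39.4, 82.4 and 49.9 CPM in sibling livers (log2 fold change −5.48 ± 0.56 (SE), adjusted p = 0.000973). adh5, the more counted alcohol dehydrogenase that also acts on formaldehyde bound to glutathione, rose, with 304, 391 and 411 CPM in nAtf6 TG livers, against 124, 166 and 139.9 CPM in sibling livers (log2 fold change 1.24 ± 0.29 (SE), adjusted p = 0.0247), a call lost without nAtf6 TG library 2 or 3 or sibling library 1 or 3 (adjusted p up to 0.108). Among 41 redox genes, 2 were called higher and 7 lower. The glutathione peroxidase gpx1a had 72.6, 49.9 and 50.9 CPM in nAtf6 TG livers, against 176, 145 and 199 CPM in sibling livers (log2 fold change −1.64 ± 0.21 (SE), adjusted p = 0.00259). The calls of gstp1.2, adh8a and gpx1a were kept in every leave-one-out fit. gpx4a, the glutathione peroxidase that acts on lipid peroxides, fell as well (−1.78, adjusted p = 0.00928), a call lost without nAtf6 TG library 2 or 3 (adjusted p up to 0.0623). Of 22 genes for bile acid synthesis and transport, 3 were called lower and 0 higher (13.6%), among them the organic anion transporter slco1d1 (−1.04, adjusted p = 0.026), whose call was lost without nAtf6 TG library 2 or 3 or sibling library 1 or 3 (adjusted p up to 0.151).

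Genes of carbohydrate metabolism were called in both directions within each list. Of 41 glycolysis genes 4 were called higher and 2 lower (14.6% called, against 21.2% of all genes). The numbers were 6 and 3 of 25 genes for gluconeogenesis and glyceroneogenesis (36%). For glycogen and the pentose phosphate pathway they were 9 and 3 of 28 (42.9%), of which 9 and 1 held. The medians of these 3 lists, 0.04, 0.05 and 0.05, all turned negative with upper quartile scaling. Glycogenin, the protein that primes glycogen synthesis, is listed under 2 identifiers with the symbol gyg1, which moved in opposite directions. ENSDARG00000059391 had 172, 345 and 345 CPM in nAtf6 TG livers, against 1.99, 1.08 and 0.949 CPM in sibling livers (log2 fold change 7.69 ± 0.46 (SE), adjusted p = 0.000112), whereas ENSDARG00000011934 had 23.5, 18.4 and 16.6 CPM in nAtf6 TG livers, against 92.1, 73.7 and 87.5 CPM in sibling livers (log2 fold change −2.18 ± 0.198 (SE), adjusted p = 0.000609). The first was low in siblings, at 1.99 CPM or less, and abundant in transgenic livers, and the second was lower in every transgenic library. tkt, transketolase, an enzyme of the pentose phosphate pathway, had 42.98, 60.2 and 60.7 CPM in nAtf6 TG livers, against 1.05, 0.493 and 1.19 CPM in sibling livers (log2 fold change 5.88 ± 0.27 (SE), adjusted p = 5.54e-05). pgm3, an enzyme of the hexosamine pathway that supplies sugar for glycans rather than for glycogen, had 53.98, 68.8 and 67.9 CPM in nAtf6 TG livers, against 10.1, 10.99 and 11.2 CPM in sibling livers (log2 fold change 2.47 ± 0.23 (SE), adjusted p = 0.000647). pck1, the carboxykinase of gluconeogenesis and glyceroneogenesis, had 1728, 1848 and 2083 CPM in nAtf6 TG livers, against 617, 593 and 628 CPM in sibling livers (log2 fold change 1.54 ± 0.23 (SE), adjusted p = 0.00427). The 3 genes rose without overlap. tpi1 (ENSDARG00000025012; the symbol has a second identifier), an isomerase of glycolysis, rose and was barely counted in siblings, with 7.805, 25.4 and 25.4 CPM in nAtf6 TG livers, against 0.847, 0.0897 and 0.427 CPM in sibling livers (log2 fold change 5.42 ± 0.65 (SE), adjusted p = 0.00191). pc (ENSDARG00000051939; the symbol has a second identifier), pyruvate carboxylase, which feeds both gluconeogenesis and the citric acid cycle, fell, with 58.3, 39.8 and 39.5 CPM in nAtf6 TG livers, against 263, 119 and 271 CPM in sibling livers (log2 fold change −2.25 ± 0.26 (SE), adjusted p = 0.00173). The calls of these 7 identifiers were kept in every leave-one-out fit. fbp1b, a fructose bisphosphatase, fell (−1.35, adjusted p = 0.026), a call lost without nAtf6 TG library 2 or 3 or sibling library 1 or 3 (adjusted p up to 0.132).

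Lipid genes were called in both directions, and here sibling library 2 differed from the other siblings. Of 32 genes for fatty acid synthesis and elongation, 9 were called higher and 5 lower (43.8% called). acss2, which makes acetyl-CoA from acetate, had 76.04, 62.8 and 61.1 CPM in nAtf6 TG livers, against 23.1, 17.4 and 23.5 CPM in sibling livers (log2 fold change 1.59 ± 0.16 (SE), adjusted p = 0.00099), and me1, the malic enzyme that supplies NADPH, had 47.2, 24.1 and 21.3 CPM in nAtf6 TG livers, against 163, 83.3 and 183 CPM in sibling livers (log2 fold change −2.22 ± 0.35 (SE), adjusted p = 0.00545). The first rose and the second fell, both without overlap. acaca, the carboxylase that commits acetyl-CoA to fatty acids, had 128, 216 and 209 CPM in nAtf6 TG livers, against 43.1, 79.98 and 43.7 CPM in sibling livers (log2 fold change 1.56 ± 0.44 (SE), adjusted p = 0.043), with sibling library 2 the highest sibling and closest to the transgenic livers. Its call was lost without nAtf6 TG library 2 or 3 or sibling library 1 or 3 (adjusted p up to 0.147). Of 35 genes of triglyceride synthesis and lipid droplets, 3 were called higher and 5 lower (22.9% called, near the 21.2% of all genes). cidec, a lipid droplet protein that promotes fusion of droplets, had 1.03, 0.0567 and 0.435 CPM in nAtf6 TG livers, against 13.7, 6.19 and 13.4 CPM in sibling livers (log2 fold change −4.44 ± 0.59 (SE), adjusted p = 0.00293). dgat2, which completes triglycerides, had 192, 80.2 and 77.9 CPM in nAtf6 TG livers, against 312, 275 and 283 CPM in sibling livers (log2 fold change −1.39 ± 0.39 (SE), adjusted p = 0.0417). Its groups did not overlap, but this call did not hold without sibling library 2 (adjusted p = 0.0588) and was lost without any library other than nAtf6 TG library 1 (up to 0.166). Of 53 genes of fatty acid oxidation and ketogenesis, 4 were called higher and 6 lower (18.9%), near the share among all genes, and 12 and 13 without sibling library 2, where 37.9% of all genes were called. acsl4 (ENSDARG00000010752; the symbol has a second identifier), which activates long polyunsaturated fatty acids, rose to 12.1, 39.4 and 39.98 CPM in nAtf6 TG livers, against 3.49, 1.03 and 4.08 CPM in sibling livers (log2 fold change 3.43 ± 0.54 (SE), adjusted p = 0.00572). cpt1ab, of the gate for fatty acids into mitochondria, fell (−1.23, adjusted p = 0.0339), a call lost without nAtf6 TG library 2 or 3 or sibling library 1 or 3 (adjusted p up to 0.153). The calls of acss2, me1, cidec and acsl4 were kept in every leave-one-out fit.

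Sterol genes show how far 1 library can decide a list. The summed level of genes for sterol synthesis and uptake was 3423, 4765 and 4763 CPM in nAtf6 TG livers, against 3226, 8215 and 3214 CPM in sibling livers. Sibling library 2 was thus the highest of all 6, while the other siblings were the lowest. Of 35 genes 6 were called higher and 2 lower (22.9% called), with a median log2 fold change of −0.17 that became 0.39 without both libraries apart. In that fit 20 of 36 were called higher and 10 lower, against 33.9% and 34.7% of all genes. fdft1, squalene synthase, had 118, 316 and 327 CPM in nAtf6 TG livers, against 18.6, 63.3 and 17.1 CPM in sibling livers (log2 fold change 2.68 ± 0.75 (SE), adjusted p = 0.0421). mvk, mevalonate kinase, had 85.2, 157 and 154 CPM in nAtf6 TG livers, against 10.4, 34.2 and 10.9 CPM in sibling livers (log2 fold change 2.59 ± 0.65 (SE), adjusted p = 0.0308). In both the transgenic livers were higher than every sibling, but sibling library 2 was over 3-fold above the other siblings. Without it the log2 fold changes were 3.95 (adjusted p = 0.00256) and 3.76 (0.000757). Both calls were lost without nAtf6 TG library 2 or 3 or sibling library 1 or 3 (adjusted p up to 0.131 and 0.102).

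The calls among nuclear genes of oxidative phosphorylation, which makes ATP in mitochondria, depended on the libraries. Of 91 nuclear genes of oxidative phosphorylation 9 were called higher and 0 lower (9.89%; median 0.26), and of these 2 were kept in every leave-one-out fit. Without sibling library 2 the calls were 39 higher and 4 lower, where 19.4% and 18.5% of all genes were called in these directions. Without nAtf6 TG library 1 they were 11 and 2, and without both 70 and 9, against 33.9% and 34.7% of all genes. The summed level was 9874, 10966 and 11205 CPM in nAtf6 TG livers, against 8388, 7505 and 9037 CPM in sibling livers. The groups did not overlap in CPM, but with TMM scaling, which raises sibling library 2 by a factor of 1.32, that library passes nAtf6 TG library 1. Of the 13 genes encoded by the mitochondrion edgeR and DESeq2 called 0, and 0 had an unadjusted p under 0.05. The largest log2 fold changes of the nuclear list were in isoforms of cytochrome oxidase subunits. cox4i1l had 20.3, 44.4 and 44.9 CPM in nAtf6 TG livers, against 4.78, 3.499 and 5.602 CPM in sibling livers (log2 fold change 2.93 ± 0.32 (SE), adjusted p = 0.00128), and cox8b had 46.4, 65.3 and 63.4 CPM in nAtf6 TG livers, against 22.8, 21.98 and 23.5 CPM in sibling livers (log2 fold change 1.27 ± 0.21 (SE), adjusted p = 0.00723). In the citric acid cycle list (7 of 34 higher, 1 lower), ogdha, a subunit of the oxoglutarate dehydrogenase, had 839, 969.8 and 991 CPM in nAtf6 TG livers, against 312, 249 and 302 CPM in sibling livers (log2 fold change 1.63 ± 0.19 (SE), adjusted p = 0.00159). pdk3 (ENSDARG00000014527; the symbol has a second identifier), a kinase that inhibits pyruvate dehydrogenase, had 23.5, 36.6 and 33.3 CPM in nAtf6 TG livers, against 6.97, 3.63 and 5.46 CPM in sibling livers (log2 fold change 2.51 ± 0.22 (SE), adjusted p = 0.000521). All 4 rose without overlap and were called in every leave-one-out fit. Of the citric acid cycle list 23.5% was called, near the 21.2% of all genes. Of 38 circadian clock genes 5 were called higher and 0 lower (13.2%; median 0.33). Without sibling library 2 these numbers were 21 and 1 of 39 (median 0.71), against 19.4% and 18.5% of all genes. The clock transcription factor bmal2 had 25.9, 33.8 and 35.8 CPM in nAtf6 TG livers, against 8.52, 1.48 and 7.26 CPM in sibling livers (log2 fold change 2.51 ± 0.44 (SE), adjusted p = 0.00866), and hlfa, a factor under clock control, had 36.7, 71.3 and 67.4 CPM in nAtf6 TG livers, against 16.98, 14.7 and 14.6 CPM in sibling livers (log2 fold change 1.84 ± 0.29 (SE), adjusted p = 0.00548). Sibling library 2 was the lowest library for bmal2. Both calls were kept in every leave-one-out fit. Livers were dissected before noon on different days, and which library belongs to which day is not given.

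Cell cycle genes showed a few large rises within a list that otherwise had few calls. Of 111 genes 9 were called higher and 0 lower (8.11% called; median −0.06). chaf1a, a subunit of a histone chaperone of replicating DNA, had 44.2, 81.9 and 82.04 CPM in nAtf6 TG livers, against 6.72, 3.095 and 6.93 CPM in sibling livers (log2 fold change 3.62 ± 0.31 (SE), adjusted p = 0.000521). orc6, a subunit of the origin recognition complex, had 18.9, 26.2 and 25.9 CPM in nAtf6 TG livers, against 2.24, 1.35 and 2.23 CPM in sibling livers (log2 fold change 3.57 ± 0.195 (SE), adjusted p = 8.94e-05), and tpx2, which organizes the spindle, had 23.5, 35.4 and 34.2 CPM in nAtf6 TG livers, against 4.98, 1.75 and 6.27 CPM in sibling livers (log2 fold change 2.85 ± 0.33 (SE), adjusted p = 0.00168). They rose without overlap. The summed level of the list was 909, 753 and 739.7 CPM in nAtf6 TG livers, against 767, 359.9 and 770.2 CPM in sibling livers, so sibling library 2 was the lowest by far, and the transgenic libraries overlapped the other siblings. Without both libraries apart the median was −0.49, with 16 of 111 genes called higher and 58 lower. That fit called 33.9% of all genes higher and 34.7% lower. The histone gene h3c13a had 13.6, 29.8 and 27.8 CPM in nAtf6 TG livers, against 1.39, 0.628 and 0.902 CPM in sibling livers (log2 fold change 4.57 ± 0.37 (SE), adjusted p = 0.000419) in a list with 5 of 22 called higher and 4 lower. The calls of these 4 genes were kept in every leave-one-out fit.

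Genes on the list of p53 targets and apoptosis were called higher more often than lower (14 against 2 of 52; 30.8%; median 0.299). This list includes a Fos family gene called higher that is also counted among the immediate early genes. Of 44 immediate early genes, 11 were called higher and 3 lower (31.8%). Of these calls 5 higher and 2 lower were kept in every leave-one-out fit. The summed level of the list was 1167, 1893 and 1891 CPM in nAtf6 TG livers, against 1286, 1162 and 1180 CPM in sibling livers. nAtf6 TG library 1 was thus at the level of the siblings. The nuclear receptor nr4a3 had 7.1002, 23.7 and 23.3 CPM in nAtf6 TG livers, against 2.14, 1.08 and 1.95 CPM in sibling livers (log2 fold change 3.36 ± 0.47 (SE), adjusted p = 0.00353), while the phosphatase dusp1, which turns off MAP kinases, had 23.8, 24.2 and 26.6 CPM in nAtf6 TG livers, against 60.95, 34.4 and 63.4 CPM in sibling livers (log2 fold change −1.11 ± 0.16 (SE), adjusted p = 0.00404). One rose and the other fell without overlap. Of the liver transcription factors 26.8% were called, and of the Igf, Fgf and hepatokine genes 32.1%, against 21.2% of all genes. Among liver transcription factors (6 of 41 higher, 5 lower), foxa3 rose (48.6, 86.02 and 82.5 CPM in nAtf6 TG livers, against 29.98, 15.8 and 28.1 CPM in sibling livers; log2 fold change 1.53 ± 0.25 (SE), adjusted p = 0.0065) and foxa2 fell (7.26, 6.07 and 5.31 CPM in nAtf6 TG livers, against 19.3, 20.01 and 18.2 CPM in sibling livers; log2 fold change −1.72 ± 0.23 (SE), adjusted p = 0.00311), both pioneer factors of endoderm. klf6, a factor induced by injury in mammals, had 49.9, 97.8 and 96.9 CPM in nAtf6 TG livers, against 19.9, 13.95 and 19.7 CPM in sibling livers (log2 fold change 2.14 ± 0.27 (SE), adjusted p = 0.00247). prox1, a factor of hepatoblasts, fell (−1.65, adjusted p = 0.0135), a call lost without nAtf6 TG library 2 or 3 (adjusted p up to 0.073). Among 28 Igf, Fgf and hepatokine genes (3 higher, 6 lower), angptl8, an inhibitor of lipoprotein lipase, had 4.07, 0.908 and 1.18 CPM in nAtf6 TG livers, against 13.6, 14.6 and 15.9 CPM in sibling livers (log2 fold change −2.93 ± 0.53 (SE), adjusted p = 0.00975). igfbp1, which binds insulin-like growth factors, rose to 605, 1394 and 1424 CPM in nAtf6 TG livers, against 441, 331 and 461 CPM in sibling livers (log2 fold change 1.42 ± 0.33 (SE), adjusted p = 0.0247), lost without nAtf6 TG library 2 or 3 or sibling library 1 or 3 (adjusted p up to 0.109). The calls of nr4a3, dusp1, foxa3, foxa2, klf6 and angptl8 were kept in every leave-one-out fit.

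Interferon response genes moved both ways, with 7 of 32 called higher and 4 lower (34.4%; median 0.05). Of these calls 4 higher and 1 lower were kept in every leave-one-out fit. The summed level was 590, 712 and 698 CPM in nAtf6 TG livers, against 306, 215 and 316 CPM in sibling livers, without overlap. parp12b, related to an interferon-induced ADP-ribosyl transferase, had 66.4, 81.8 and 80.95 CPM in nAtf6 TG livers, against 5.53, 3.77 and 6.599 CPM in sibling livers (log2 fold change 3.81 ± 0.18 (SE), adjusted p = 6.91e-05), and irf3, a factor that induces interferon, had 4.82, 12.7 and 13.4 CPM in nAtf6 TG livers, against 2.09, 1.57 and 0.902 CPM in sibling livers (log2 fold change 2.67 ± 0.48 (SE), adjusted p = 0.0095). Both rose without overlap and were called in every leave-one-out fit. In the list of inflammatory cytokines and NF-kB genes 5 of 29 were called higher and 4 lower (31.0% called). Among them nfkb2, a subunit of NF-kB, rose (1.33, adjusted p = 0.0075) and was called in every leave-one-out fit.

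The highest fold changes outside the ER stress lists were in genes with low levels in sibling livers. Described here are 9 of the 10 highest and the 10 lowest log2 fold changes among genes with a symbol and a mean of at least 10 CPM that held and whose groups did not overlap, so their size is how they were chosen. chrna2 (ENSDARG00000006602; the symbol has a second identifier), a subunit of the nicotinic acetylcholine receptor, had 144, 352 and 344 CPM in nAtf6 TG livers, against 1.15, 0.852 and 0.427 CPM in sibling livers (log2 fold change 8.35 ± 0.58 (SE), adjusted p = 0.000204). epdr1, related to ependymin, had 188, 266 and 270.2 CPM in nAtf6 TG livers, against 1.096, 0.583 and 0.522 CPM in sibling livers (log2 fold change 8.304 ± 0.36 (SE), adjusted p = 5.09e-05). six3 (ENSDARG00000054879; the symbol has a second identifier), a homeobox factor of forebrain and eye, had 86.2, 343 and 336 CPM in nAtf6 TG livers, against 0.946, 0.897 and 0.5697 CPM in sibling livers (log2 fold change 8.21 ± 0.704 (SE), adjusted p = 0.0005). clstn3, a calsyntenin, a membrane protein of synapses, reached the highest level of these, with 2089, 2967 and 2926 CPM in nAtf6 TG livers, against 12.8, 12.3 and 6.504 CPM in sibling livers (log2 fold change 7.86 ± 0.49 (SE), adjusted p = 0.000138). si:dkeyp-1h4.6 had 352, 653 and 690.1 CPM in nAtf6 TG livers, against 3.09, 2.11 and 2.14 CPM in sibling livers (log2 fold change 7.79 ± 0.396 (SE), adjusted p = 7.14e-05). slc4a11, a membrane transporter of the bicarbonate transporter family, had 183, 860.3 and 876 CPM in nAtf6 TG livers, against 3.93, 3.68 and 2.09 CPM in sibling livers (log2 fold change 7.52 ± 0.77 (SE), adjusted p = 0.000985). porcn (ENSDARG00000052558; the symbol has a second identifier), which attaches a lipid to Wnt proteins in the ER, had 17.9, 55.3 and 58.05 CPM in nAtf6 TG livers, against 0.448, 0.224 and 0.142 CPM in sibling livers (log2 fold change 7.26 ± 0.63 (SE), adjusted p = 0.000521). In each of these nAtf6 TG library 1 was the lowest transgenic library and still far above every sibling. zgc:122979 was different, with 2.01, 76.8 and 83.3 CPM in nAtf6 TG livers, against 0.548, 0.224 and 0.1899 CPM in sibling livers (log2 fold change 7.33 ± 1.405 (SE), adjusted p = 0.0118). Its level in nAtf6 TG library 1 was near that of the siblings, and the call was lost without sibling library 1 or 3 (adjusted p up to 0.0594). gyg1 (ENSDARG00000059391), described above, belongs with them.

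Of the 10 lowest, hpxa, adh8a, apcs, cfhl5, cetp and pah were described above. bmp7a, a secreted bone morphogenetic protein, had 1.03, 0.567 and 0.435 CPM in nAtf6 TG livers, against 23.1, 24.9 and 23.03 CPM in sibling livers (log2 fold change −5.23 ± 0.36 (SE), adjusted p = 0.000199). upp2, a uridine phosphorylase, had 6.45, 1.31 and 1.87 CPM in nAtf6 TG livers, against 107, 33.1 and 122 CPM in sibling livers (log2 fold change −4.74 ± 0.68 (SE), adjusted p = 0.00388). In CPM the sibling libraries were close to each other for bmp7a, whereas sibling library 2 was the lowest sibling for upp2. Another of the 10, with a name taken from a clone, appears only in the plot of the largest changes. cdc42bpa (ENSDARG00000016464; the symbol has a second identifier), a kinase bound by Cdc42, had 5.96, 2.95 and 2.87 CPM in nAtf6 TG livers, against 74.05, 9.599 and 68.8 CPM in sibling livers (log2 fold change −3.62 ± 0.65 (SE), adjusted p = 0.0094), with sibling library 2 near the transgenic livers, and its call was lost without nAtf6 TG library 2 (adjusted p = 0.0516). The calls of all other genes in this and the preceding paragraph but zgc:122979 were kept in every leave-one-out fit.

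**Figure D4:**
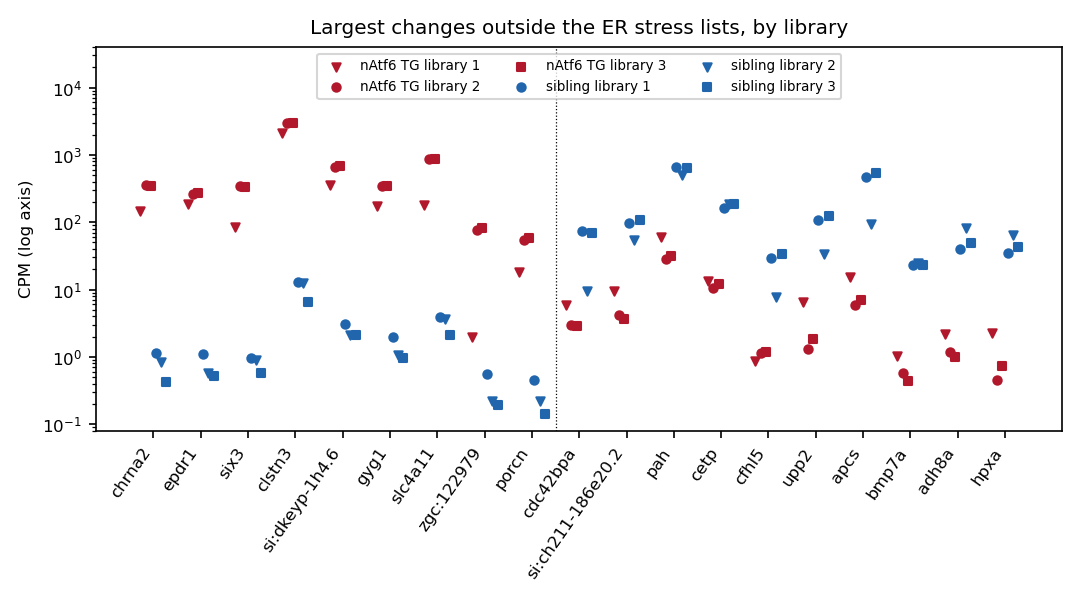
Level in CPM (vertical log axis) of 9 of the 10 genes with the highest and, right of the dotted line, the 10 with the lowest log2 fold change outside the ER stress lists, 1 point per library, red for nAtf6 TG and blue for sibling livers. In the higher genes siblings lie at 13 CPM or less and most transgenic libraries at 50 CPM or more, with nAtf6 TG library 1 (triangle) the lowest of its group.

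Markers of other cell types moved with the libraries as well as with the groups. Exocrine pancreas, which lies against the liver, had a summed level over its markers of 2614, 1519 and 1512 CPM in nAtf6 TG livers, against 6379, 2004 and 6991 CPM in sibling livers. Sibling library 2 was close to the transgenic libraries and far below the other siblings. Of 25 tested members 10 were called lower and 0 higher (40%, median −1.397). Without sibling library 2, 23 of 26 were called lower, against 18.5% of all genes. ela3l, an elastase, had 62.9, 57.3 and 56.1 CPM in nAtf6 TG livers, against 210.4, 90.3 and 233.6 CPM in sibling livers (log2 fold change −1.59 ± 0.24 (SE), adjusted p = 0.00494) and was called in every leave-one-out fit. Trypsin, prss1, had 301, 170.3 and 173 CPM in nAtf6 TG livers, against 744, 247 and 859 CPM in sibling livers (log2 fold change −1.49 ± 0.38 (SE), adjusted p = 0.0334), with overlap, and lost its call without nAtf6 TG library 2 or 3 or sibling library 1 or 3 (adjusted p up to 0.148). Skeletal muscle markers summed to 1075, 359 and 359 CPM in nAtf6 TG livers, against 1713, 493 and 1838 CPM in sibling livers, and of 26 tested 2 were called higher and 3 lower. Here nAtf6 TG library 1 was nearer the siblings than nAtf6 TG libraries 2 and 3 were, and sibling library 2 nearer the transgenic livers. Markers of skin, neural tissue and lens summed to 218, 173 and 166 CPM in nAtf6 TG livers, against 464, 127 and 492 CPM in sibling livers (4 of 32 higher, 9 lower). Stellate and fibroblast markers summed to 448, 372 and 384 CPM in nAtf6 TG livers, against 704, 275 and 732 CPM in sibling livers (1 and 1 of 32). In these as in endocrine pancreas markers, which summed to 33.6, 35.1 and 35.1 CPM in nAtf6 TG livers, against 59.6, 5.43 and 64.5 CPM in sibling livers (1 and 0 of 11), sibling library 2 was the lowest of all 6 libraries. Without it 18.5% of all genes were called lower. The calls lower were then 13 of 28 for muscle and 15 of 34 for skin, neural tissue and lens. For stellate cells they numbered 13 of 33 and for endocrine pancreas 9 of 13. Their part in the changes described was not tested.

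Other marker lists differed less in their summed levels or in another direction. By share of members called, macrophage and neutrophil markers led the 12 marker lists (42.9%, in both directions, against 21.2% of all genes). Bile duct markers summed to 2995, 4789.8 and 4834 CPM in nAtf6 TG livers, against 2328, 1183 and 2496 CPM in sibling livers (4 of 19 higher, 2 lower). Most of the difference lay in 1 gene, the galectin lgals2b, which is on this list and on that of intestine and had 1253, 1946 and 1938 CPM in nAtf6 TG livers, against 139.9, 84.7 and 149.9 CPM in sibling livers (log2 fold change 3.75 ± 0.26 (SE), adjusted p = 0.000203), a call kept in every leave-one-out fit. Without lgals2b the bile duct markers summed to 1743, 2844 and 2896 CPM in nAtf6 TG livers, against 2188, 1098 and 2346 CPM in sibling livers, and the groups overlapped. The keratin krt18a.1, which other epithelia also express, was another member, with 265, 891 and 926 CPM in nAtf6 TG livers, against 164, 121 and 176 CPM in sibling livers (log2 fold change 2.12 ± 0.45 (SE), adjusted p = 0.0168). Its call was lost without nAtf6 TG library 2 or 3 or sibling library 1 or 3 (adjusted p up to 0.0747). Intestine markers summed to 2293, 2776 and 2754 CPM in nAtf6 TG livers, against 2444, 1297 and 2663 CPM in sibling livers (3 of 35 higher, 9 lower), and without lgals2b to 1040.4, 831 and 816 CPM in nAtf6 TG livers, against 2304, 1212 and 2513 CPM in sibling livers, so that the transgenic livers were lower without overlap. The chitinase chia.1 had 8.67, 6.92 and 6.27 CPM in nAtf6 TG livers, against 91.1, 3.95 and 98.2 CPM in sibling livers (log2 fold change −3.04 ± 0.87 (SE), adjusted p = 0.0457). Here sibling library 2 was below the transgenic livers, and the call was lost without nAtf6 TG library 1, 2 or 3 or sibling library 1 or 3 (adjusted p up to 0.162). Endothelial markers summed to 542, 603 and 578 CPM in nAtf6 TG livers, against 511, 459 and 479 CPM in sibling livers (3 of 29 higher, 1 lower), macrophage and neutrophil markers to 325, 419 and 409 CPM in nAtf6 TG livers, against 446, 274 and 449.8 CPM in sibling livers (8 and 4 of 28), erythrocyte markers to 821, 812 and 807 CPM in nAtf6 TG livers, against 733, 514 and 804 CPM in sibling livers (1 and 2 of 16), and kidney markers to 364, 466 and 478 CPM in nAtf6 TG livers, against 469, 575 and 468 CPM in sibling livers (1 and 2 of 17). Among the defining markers matched, only 3 of the 6 identifiers named mfap4, a gene of macrophages, had a count of 0 in any library, and lyz, lysozyme of neutrophils, stayed below 1 CPM in every library. The part of these cell types in the changes was not tested.

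**Figure D5:**
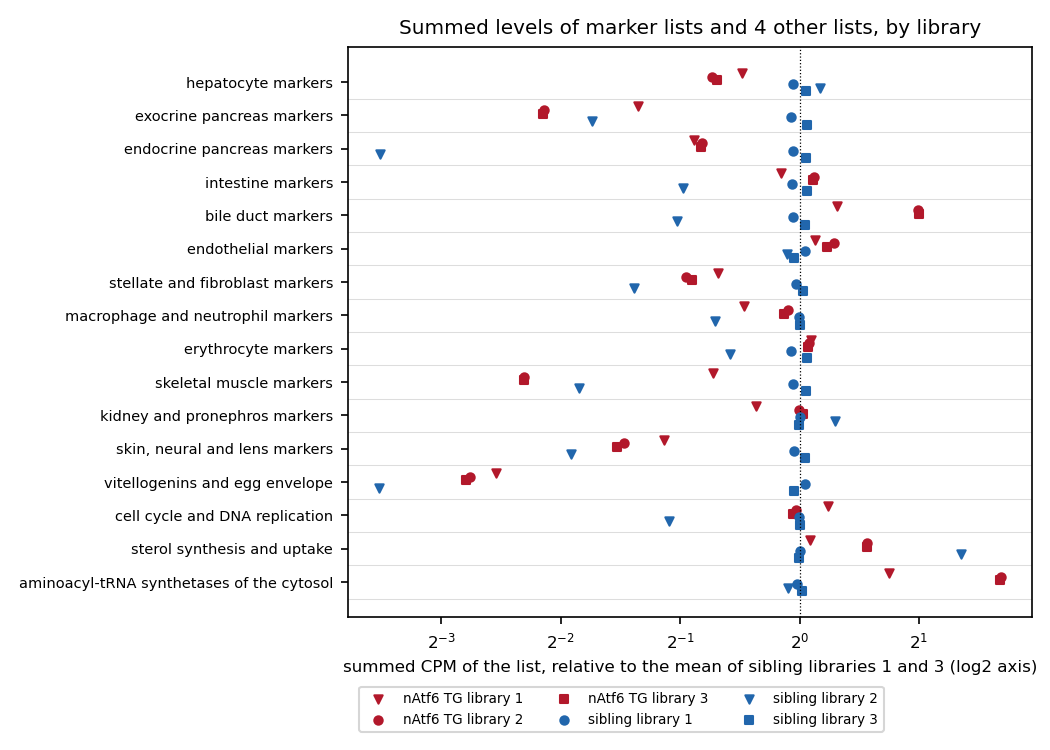
Summed CPM of 12 cell type marker lists and 4 other lists, relative to the mean of sibling libraries 1 and 3 (horizontal log2 axis), 1 point per library, red for nAtf6 TG and blue for sibling livers. Sibling library 2 (blue triangle) lies below the other siblings for exocrine pancreas, muscle, skin and cell cycle genes and above them for sterol genes, and nAtf6 TG library 1 (red triangle) is the transgenic library nearest the siblings for tRNA synthetases and muscle.

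The genes that set the libraries apart were described by the ratio of that library to the mean of the others of its group, among genes of at least 50 CPM in the group, and carry no test of that ratio. In nAtf6 TG library 1 the lowest ratios belonged to zgc:122979, anxa1, fosl2, rcn1 and cbx7a. rcn1, a calcium binding protein of the ER, had 110.2, 580.3 and 549 CPM in nAtf6 TG livers, against 5.23, 4.31 and 4.46 CPM in sibling livers (log2 fold change 6.39 ± 0.69 (SE), adjusted p = 0.00121), and cbx7a, a Polycomb protein, had 19.9998, 105 and 93.8 CPM in nAtf6 TG livers, against 5.63, 3.36 and 6.27 CPM in sibling livers (log2 fold change 3.81 ± 0.59 (SE), adjusted p = 0.00537). Both were lowest in library 1, yet called whichever library was left out. fosl2, a Fos family factor, had 12.6, 92.3 and 87.96 CPM in nAtf6 TG livers, against 11.01, 8.39 and 8.74 CPM in sibling livers (log2 fold change 2.703 ± 0.66 (SE), adjusted p = 0.0279) and was lost without nAtf6 TG library 2 or 3 or sibling library 1 or 3 (adjusted p up to 0.105). anxa1, annexin A1, had 13.3, 215 and 202 CPM in nAtf6 TG livers, against 16.2, 3.77 and 18.1 CPM in sibling livers (log2 fold change 3.54 ± 0.96 (SE), adjusted p = 0.0393), with nAtf6 TG library 1 within the range of the siblings, and was lost without any library other than nAtf6 TG library 1 (adjusted p up to 0.121). The highest ratios in library 1 included the muscle genes myl11 and actc1b. actc1b, a cardiac type actin, had 195, 29.9 and 28.3 CPM in nAtf6 TG livers, against 259, 85.1 and 257 CPM in sibling livers (log2 fold change −1.22 ± 0.76 (SE), adjusted p = 0.283) and was not called. In sibling library 2 the lowest ratios included tcnba, krt1-19d, zgc:165423, myhz1.1l and muc5.3, which are keratin, myosin heavy chain and mucin genes where a name is given, except tcnba, a vitamin B12 binding protein. krt1-19d had 1.73, 0.624 and 0.348 CPM in nAtf6 TG livers, against 74.7, 0.538 and 78.1 CPM in sibling livers (log2 fold change −5.73 ± 1.46 (SE), adjusted p = 0.0318), and its call was lost without nAtf6 TG library 2 or 3 or sibling library 1 or 3 (adjusted p up to 0.129). Its sibling library 2 lay within the range of the transgenic livers. Among the highest ratios were cyp27b1, a hydroxylase of vitamin D, and txnip, a thioredoxin binding protein induced by glucose in mammals. cyp27b1 had 3.09, 2.497 and 2.83 CPM in nAtf6 TG livers, against 17.1, 160.4 and 15.9 CPM in sibling livers (log2 fold change −4.87 ± 1.15 (SE), adjusted p = 0.0253) and was lost without nAtf6 TG library 1, 2 or 3 (adjusted p up to 0.109). txnip (ENSDARG00000070000; the symbol has a second identifier) had 419.8, 467 and 469.7 CPM in nAtf6 TG livers, against 12.5, 136 and 11.5 CPM in sibling livers (log2 fold change 2.72 ± 1.07 (SE), adjusted p = 0.11) and was not called with all 6 libraries although its groups did not overlap. Without sibling library 2 its log2 fold change was 5.36 (adjusted p = 6.76e-05).

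Most calls held without the libraries apart. Of the 3913 calls, 3597 held (91.9%) and 316 did not, 80 of them higher and 236 lower in nAtf6 TG livers. Of these 316, 207 were lost without nAtf6 TG library 1 and 116 without sibling library 2, none was lost when both were left out, and none of the 3913 turned its sign in that fit. Without both, however, 68.7% of the genes tested were called, so a call in that fit separates few genes from the rest. The stricter requirement, a call whichever library was left out, kept 1081 of all 2531 calls higher (42.7%) and 213 of all 1382 calls lower (15.4%), which is the background for the counts by function. It kept 31 of 33 ER chaperone calls, 10 of 16 in ER-associated degradation, 14 of 17 in translocation and N-glycosylation and 24 of 45 in vesicle transport. It kept 5 of 12 tRNA synthetase calls, 5 of 9 calls higher in the integrated stress response and 4 of 31 proteasome calls. Among the calls lower it kept 6 of 17 for plasma carriers, 5 of 13 for complement, 4 of 18 for cytochromes P450, 3 of 10 for apolipoproteins and 0 of 20 for conjugating enzymes. Summing nAtf6 TG libraries 2 and 3 alone gave 1417 calls (7.07% of those tested), 1155 higher (5.76%) and 262 lower (1.31%). When the libraries most alike were summed in both groups, so that each had 2 members, 429 genes were called (2.15% of those tested), 390 higher (1.96%) and 39 lower (0.196%). All 429 belong to the 1294. They include 23 ER chaperone genes, 8 of ER-associated degradation and 7 of vesicle transport. Called lower were 4 plasma carriers, 2 complement genes and 1 apolipoprotein. No tRNA synthetase, proteasome or integrated stress response gene was called. No cytochrome P450, coagulation gene or conjugating enzyme was called lower. With 2.15% of all genes called, a list of few members can be without a call.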

How the data were processed

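RNA was extracted from pools of 25 dissected livers per library (RNA integrity number above 8.5) and sequenced after removal of ribosomal RNA, although the labels also name polyA RNA. The authors deposited raw read counts per Ensembl gene, without normalization, for 32105 identifiers in 6 libraries of 5 dpf. The submitters' processing notes name FastQC 0.11.5, Trimmomatic, TopHat2 2.1.0, HTSeq, DESeq2 and the build GRCz10. The annotation release and whether counting used strand are not given in the sources used here. Without strand, overlapping genes cannot be told apart.

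Libraries were grouped by their titles. The test was the 2-sided quasi-likelihood test of edgeR 4.0.16 (R 4.3.3), on counts filtered by filterByExpr and scaled by TMM (adjusted by Benjamini-Hochberg over the 18470 genes tested). The procedure was tested on simulated data in which all libraries were independent and none stood apart. That test therefore does not cover the libraries alike or apart here. The labels do not say that replicates with 1 number share a clutch, so no pairing entered the test. Same-numbered libraries did not deviate together, but this cannot show whether libraries of different numbers share a clutch. p-values measure the spread between these pools and treat every library as independent. If the libraries most alike within a group are not independent, that spread is understated and the p-values are too small. Their independence was not tested. With these libraries summed in both groups 429 genes were called, against 3913 with all libraries kept separate, but summing also leaves fewer members per group. Fold changes of genes with few counts in a group depend on the prior count of the fit. The SE of a log2 fold change is an approximation. It is the absolute log2 fold change divided by the square root of the F statistic of the test.

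Symbols came from a table that names 26269 identifiers, of which 4301 share a symbol with another, and paralogs can share reads. The 60 gene lists hold 1745 names, of which 1613 matched an identifier. The lists, the libraries left out and the rules for naming genes were chosen with earlier results of these data known. Named are atf6, the 10 most counted identifiers of each group, the 10 largest changes in each direction outside the ER stress lists (at least 10 CPM, held, groups without overlap), up to 3 members called in each direction per list (at least 5 CPM), and the 5 genes at each end of the ratio of each library apart to the others of its group (at least 50 CPM). Of the 278 identifiers these rules pick, the 136 described were chosen after their values were seen. The alternatives were other scalings, filters, DESeq2 1.42.0, a block for the replicate number, a minimum absolute log2 fold change of 1, and fits that left out libraries. Fits that summed libraries were added after the data were seen. Results for 4 identifiers that these rules name are not reported here. The 4 libraries of the younger age were not used here.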

Additional observations from a re-analysis of the deposited data

How the results depend on the processing

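The number of genes called depended most on which libraries entered. It lay between 1361 (without nAtf6 TG library 2) and 7598 (without sibling library 2) when 1 library was left out, was 13690 without nAtf6 TG library 1 and sibling library 2, 1417 with nAtf6 TG libraries 2 and 3 summed, and 429 with sibling libraries 1 and 3 summed as well. Fits that leave out 1 library of a group assume that the others vary alike. Other settings gave 3128 (replicate block) to 4565 (DESeq2) calls, and 2730 with a minimum absolute log2 fold change of 1. Without both libraries apart they gave 9589 (DESeq2) to 14541 (no filter). The difference in the share of the 10 most counted identifiers kept its sign in every setting, between −7.28 and −3.61 percentage points with 1 library left out. Of the 278 identifiers that the naming rules pick, 5 changed sign in at least 1 setting, none of them called with all 6 libraries. The log2 fold change of csad was 0.23 and lay between −0.37 and 2.41 over all settings, that of fgf19 was −1.97 (−2.65 to 0.76), that of gck −0.47 (−1.28 to 0.37) and that of pvalb1 −0.395 (−2.03 to 0.0897). ENSDARG00000080337, the only one of the 5 described above, had a log2 fold change of −0.092, and it was 0.0252 with total counts and 0.19 without both libraries apart, and lay between −0.29 and 0.26 with 1 library left out. Summing both pairs of libraries ended the call of 78 of the 136 identifiers described above, and the cause was not tested. The median of 12 of the 60 lists changed sign with upper quartile scaling and that of 9 without both libraries apart. Upper quartile scaling turned positive medians negative for one-carbon metabolism, translation factors, autophagy, glycolysis, gluconeogenesis, glycogen and interferon genes, among others. With the replicate number as a block, 3128 genes were called and 7 of the 136 lost their call. The replicate block pairs libraries that share only a number, and the deviations of same-numbered libraries from their group means correlated at 0.0915, 0.0697 and −0.0722. With 3 pools in each group, smaller changes than those called could not be separated from the spread between pools.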
